A study of Mus musculus with 2 samples.

Results

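Per1, Per2, Per3, Dbp, Tef, Nr1d1, Nr1d2, Arntl, Ciart and Bhlhe40 are genes of the circadian clock, and they are described here in single lung cells from 2 libraries, 1 per genotype. The 10 genes were taken by symbol from the 32285 genes that the deposited matrices list, with earlier results of these data known. The question was whether the 2 libraries differed in clock phase. The study asked what the urokinase receptor, encoded by Plaur, does in allergic airway inflammation. Mice deficient in Plaur (Plaur-/-) and wild-type (WT) C57B6/J mice, 8 of each genotype, were sensitised with LPS/OVA, that is ovalbumin with bacterial lipopolysaccharide, on days 0 and 7. Both genotypes then inhaled an ovalbumin aerosol on day 14, so no library came from an unchallenged animal. The lungs were digested, cells without CD45.2, a marker of blood-derived cells, were sorted, and about 16000 live cells per library were loaded for droplet 3' RNA sequencing with an aim of 10000. The mice per library and the time of day at which lungs were taken are not given in the sources used here.

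The mammalian clock is a loop of transcription. BMAL1, the protein of Arntl, pairs with CLOCK and switches on genes that carry the E-box motif, among them the Per genes, Dbp, Tef, both REV-ERB genes, Ciart and Bhlhe40. PER proteins, CIART and BHLHE40 hold the activator back, while the REV-ERB proteins (NR1D1 and NR1D2) repress Arntl through the ROR element, so that Arntl peaks at about the opposite time of day to Dbp and the REV-ERB genes. DBP and TEF pass the rhythm on to other genes through the D-box. In the lung the clock runs in epithelial, endothelial and mesenchymal cells, and Per1, Per2 and Bhlhe40 also answer to acute stimuli such as glucocorticoids.

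The 3 elements that tie the genes to one another are shown in promoter windows of members, because each stands for 1 arm of the loop. Which genes count below as the E-box side was taken from the known wiring of the clock and not from these windows. The windows are RefSeq's (build GRCm38.p6), run from 250 bases before to 50 bases after a start site, and are printed on the strand of the gene with the motif in capitals. Ciart lies at chr3:95882179-95882478 on the minus strand and holds 3 E-boxes (CACGTG), whose first bases are at -116, -58 and -44 relative to the start site. Per3 lies at chr4:151044616-151044915 on the minus strand and holds 2 D-boxes (TTATGTAA), at -205 and -158. The Arntl window at chr7:113207261-113207560 on the plus strand holds 1 ROR element (AAN followed directly by TAGGTCA), 27 bases past the start site and thus in transcribed sequence.
Ciart: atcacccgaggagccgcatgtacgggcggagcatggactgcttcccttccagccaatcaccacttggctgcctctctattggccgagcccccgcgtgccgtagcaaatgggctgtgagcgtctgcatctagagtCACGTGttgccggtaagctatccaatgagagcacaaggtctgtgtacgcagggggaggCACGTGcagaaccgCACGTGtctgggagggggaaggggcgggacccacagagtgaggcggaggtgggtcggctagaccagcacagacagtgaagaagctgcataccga
Per3: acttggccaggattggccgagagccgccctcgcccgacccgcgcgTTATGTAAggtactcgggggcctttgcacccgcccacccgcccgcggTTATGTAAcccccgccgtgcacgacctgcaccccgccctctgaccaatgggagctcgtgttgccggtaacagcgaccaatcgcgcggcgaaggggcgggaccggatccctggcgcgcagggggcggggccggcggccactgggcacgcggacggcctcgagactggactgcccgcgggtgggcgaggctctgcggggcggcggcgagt
Arntl: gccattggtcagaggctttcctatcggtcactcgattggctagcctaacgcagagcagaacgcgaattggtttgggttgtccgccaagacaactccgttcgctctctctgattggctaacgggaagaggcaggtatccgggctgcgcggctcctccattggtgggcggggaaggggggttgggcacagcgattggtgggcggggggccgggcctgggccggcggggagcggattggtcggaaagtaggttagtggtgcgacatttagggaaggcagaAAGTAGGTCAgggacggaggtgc

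For 8 of the 10 members the RefSeq table held windows, 11 in all, and both strands were searched. An E-box was found in 4 of the 11 windows (Ciart, Per1 and both of Tef), against 7.15% of 32851 windows of all genes. The related letters CACGTT were found in 1 window, that of Nr1d1, against 4.68% of all windows. A D-box (TTATGTAA or TTACGTAA) was found in the Per3 window alone among the members, against 1.06%, and the ROR element in 1 Arntl window alone, against 0.219%. Letters of a cAMP response element (TGACGTCA), a glucocorticoid response element (AGNACA and TGTNCT, 3 bases apart) and a heat shock element (GAA, TTC and GAA, each 2 bases apart) were in 0 of the 11 windows, against 1.79%, 0.0639% and 0.603% of all windows. Such a match is a stretch of letters, not evidence that a factor binds there.

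The Plaur KO-labelled library held 8934 cells after filtering and the WT library 10225, with medians of 5537.5 UMIs per cell in the KO-labelled library and 4837 in the WT library; KO and WT before a value name these libraries. Clusters were named only from marker genes, and 9 classes had at least 100 cells in each library. AT2-like cells, the surfactant-producing cells of the alveolus, were 60.85% of the KO-labelled cells and 34.57% of the WT cells, so values over all cells mix class makeup with level and the clock genes were compared within classes. The other classes were ciliated-like, general capillary-like, aerocyte capillary-like, venous endothelial-like, mesothelial-like and adventitial fibroblast-like cells, and 2 clusters that are called by number. These are cluster 9, where AT1 and AT2 markers are mixed, and cluster 6, a fibroblast cluster led by Mgp, Mfap4, Timp1 and Col1a2. Plaur itself was read in both libraries, at 33.1 CPM (its UMIs per 1000000 UMIs of the cells summed) in the KO-labelled cells and 46.9 CPM in the WT cells. In AT2-like cells it was higher in the KO-labelled library, at KO 16.4 CPM against WT 1.58 CPM (log2 3.38, 2.90 to 3.90), and in aerocyte capillary-like cells lower, at KO 240.1 CPM against WT 473.7 CPM (log2 -0.98, -1.23 to -0.74). The labels do not say which part of Plaur was deleted, and a 3' tag outside that part does not check the label. The 2 libraries shared 30 cell barcodes, 27 of them among kept cells.

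RNA of AT2 cells was read in every other class and at unequal levels. All 10 AT2 markers had UMIs in each of the 7 compared classes outside AT2-like cells and cluster 9, and their summed level there was 10452 to 26827 CPM in the KO-labelled library and 1864 to 11932 CPM in the WT library. By Sftpc, the surfactant protein C gene, the level in general capillary-like cells was 11.5% of the AT2-like level in the KO-labelled library and 1.71% in the WT library. In adventitial fibroblast-like cells it was 5.03% in the KO-labelled library and 4.96% in the WT library. With this share of AT2 RNA subtracted, 42 clock gene ratios were recomputed, and all stayed within the counting intervals described below. Only some of these values are given, so a ratio without one can differ too.

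Each ratio below is the log2 of CPM in the KO-labelled library over CPM in the WT library, followed by a 95% interval that covers counting error only. With 1 library per genotype no difference has a replicate check, none was tested, and the genotype cannot be told apart from the library, its animals or the hour of collection. A ratio was read only where a gene had at least 20 UMIs over both libraries in a class, and a difference was counted past 1.5-fold. Of the 90 pairs of a clock gene and a class, 61 had that minimum. Among them 5 (8.2%) were higher and 8 (13.1%) lower past 1.5-fold, where 6.27% of the pairs of all genes were higher and 10.8% lower. Past 2-fold, 3 were higher and 0 lower, beside 1.82% and 3.64% of the pairs of all genes. The shares past 1.5-fold were near those of all genes in both directions, so the counts say nothing particular about the clock genes. An interval that included 0 was found for 50 of the 61, while 3 lay above 0 and 8 below. The share of such intervals among all genes was not computed, so these counts are not read as particular to the clock genes.

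**Figure D1:**
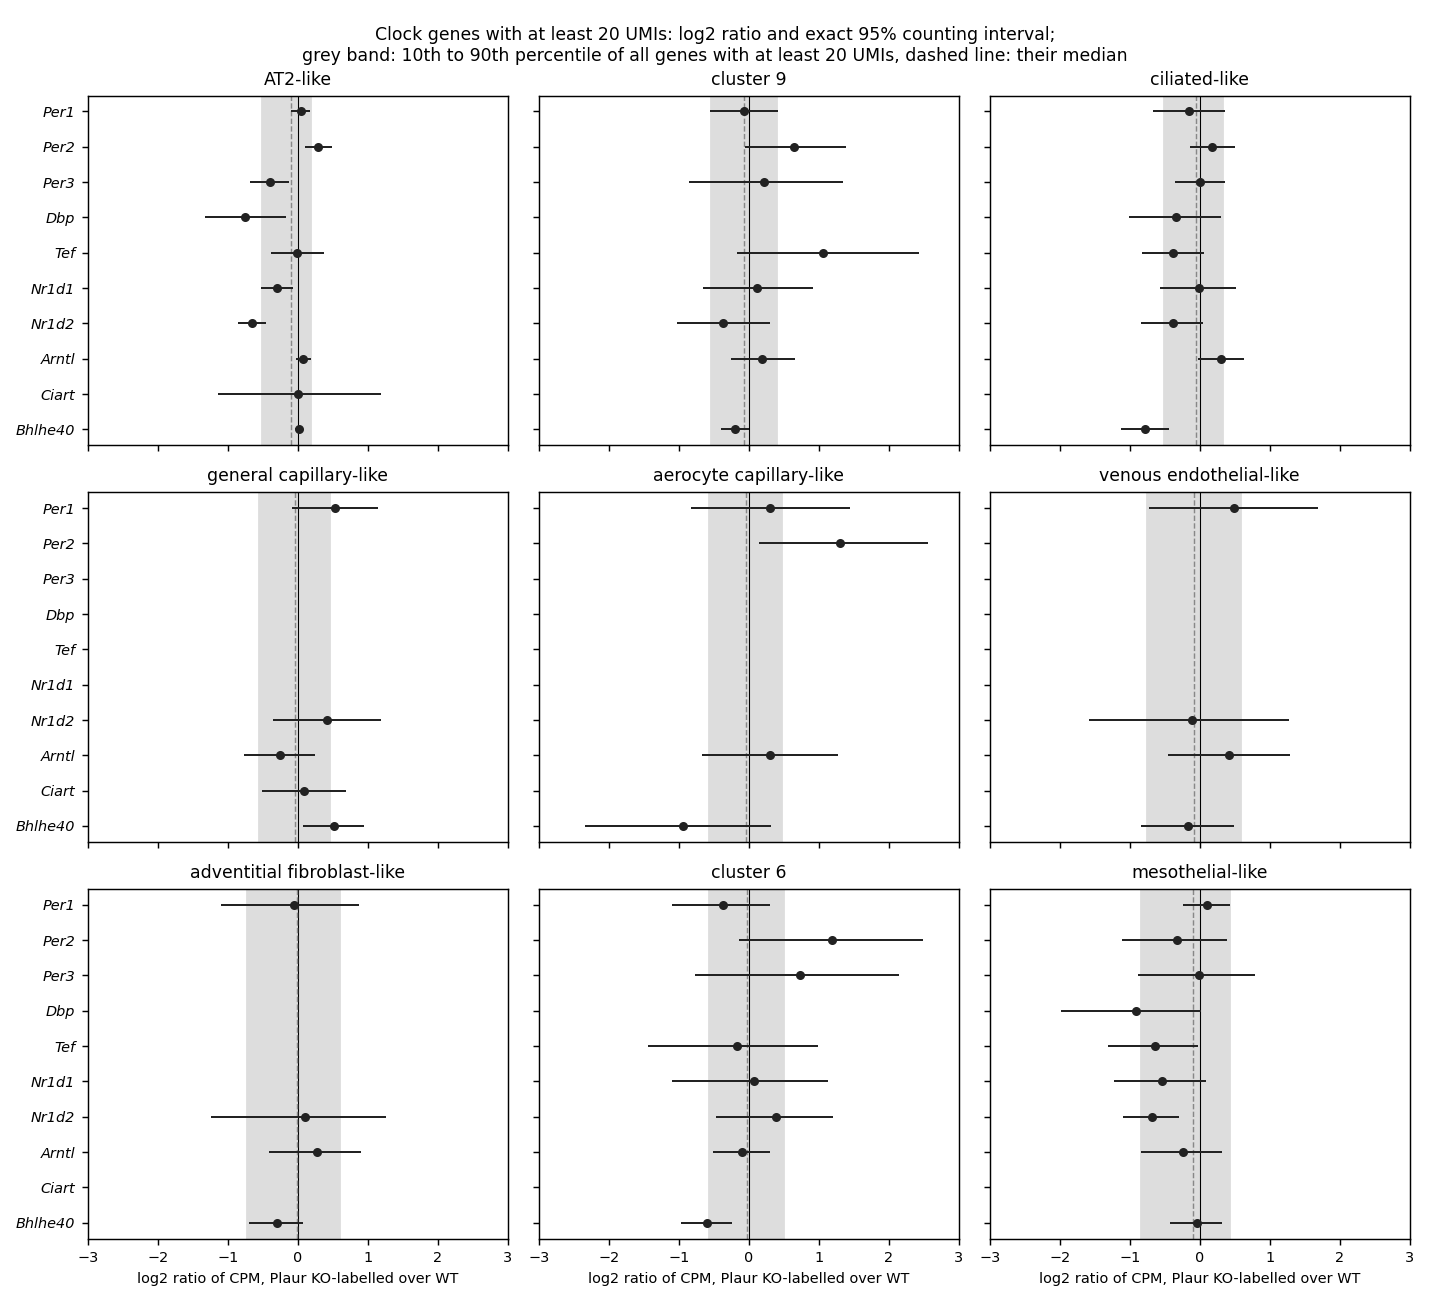
Log2 ratio of CPM, Plaur KO-labelled library over WT library, for the clock genes with at least 20 UMIs in each of the 9 compared classes (1 panel per class), with exact 95% counting intervals, the 10th to 90th percentile of all genes as a grey band and their median as a dashed line. In mesothelial-like cells 8 of 9 points lie below 0, where the median of all genes is also below 0, at -0.10, and 17.2% of all genes are lower past 1.5-fold. No Arntl point lies past 1.5-fold.

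Read class by class against all genes, the counts were small. In AT2-like cells 0 of 10 members were higher and 2 lower (Dbp and Nr1d2), where 2.35% of all genes with the minimum were higher and 8.65% lower. In mesothelial-like cells 0 of 9 were higher and 3 lower (Dbp, Tef and Nr1d2), where 5.74% of all genes were higher and 17.2% lower. In ciliated-like cells 0 of 9 were higher and 1 lower (Bhlhe40), with 4.33% and 7.58% among all genes. In these 3 classes, where 9 or 10 members had the minimum, every difference past the fold was on the lower side.

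The remaining classes gave fewer members or mixed directions. In cluster 9, 2 of 8 members were higher (Per2 and Tef) and 0 lower, beside 5.23% and 8.21% of all genes. In cluster 6, 2 of 8 were higher (Per2 and Per3) and 1 lower (Bhlhe40), beside 7.35% and 9.36%. In aerocyte capillary-like cells 1 of 4 was higher (Per2) and 1 lower (Bhlhe40), beside 7.52% and 9.74%. No member passed the fold in general capillary-like cells (0 of 5, beside 7.4% higher and 8.96% lower among all genes), venous endothelial-like cells (0 of 4, beside 10.4% and 16.4%) or adventitial fibroblast-like cells (0 of 4, beside 10.4% and 13.8%). With at most 8 members in each of these classes, a single gene past the fold already lies above the share among all genes.

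Arntl, the gene of the activator BMAL1 and the only member on the ROR-element side, was within 1.5-fold between the libraries in all 9 classes as counted. It lies on chromosome 7 (113207465 to 113314126, plus strand, GRCm38). In AT2-like cells it had 1914 UMIs in the KO-labelled library and 1205 in the WT library, or KO 54.3 and WT 51.5 CPM, a log2 ratio of 0.08 (-0.03 to 0.18). This is its most closely bounded value. In ciliated-like cells Arntl had KO 38.2 and WT 30.9 CPM (log2 0.31, -0.02 to 0.63), in mesothelial-like cells KO 22.0 and WT 26.1 CPM (log2 -0.24, -0.84 to 0.32), and in general capillary-like cells KO 36.9 and WT 44.2 CPM (log2 -0.26, -0.77 to 0.25). Over the 9 classes the ratio ran from -0.26 to 0.42, with 6 classes above 0 and 3 below, and every interval included 0 on the scale used here. Other settings moved it. Under TMM scaling the ratio in AT2-like cells was 0.20, above the interval given. With each cell thinned to 1000 UMIs the ratio was 1.62 in cluster 9, -0.90 in mesothelial-like cells and -0.22 in ciliated-like cells. Under the stricter cell filter it was 0.75 in general capillary-like cells. The sign thus changed in ciliated-like and general capillary-like cells. Thinned ratios come from a random draw of fewer UMIs and have no interval of their own. In cluster 9 an Arntl UMI was left in 5.31% of 377 KO-labelled and 1.82% of 275 WT cells. Across the compared classes, Arntl was highest in venous endothelial-like cells and cluster 6, at 78.5 and 65.6 CPM in the KO-labelled library and 58.8 and 70.3 CPM in the WT library, and the intervals of these classes overlapped. Its lowest level was in mesothelial-like cells in the KO-labelled library and in aerocyte capillary-like cells, at 20.1 CPM, in the WT library.

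**Figure D2:**
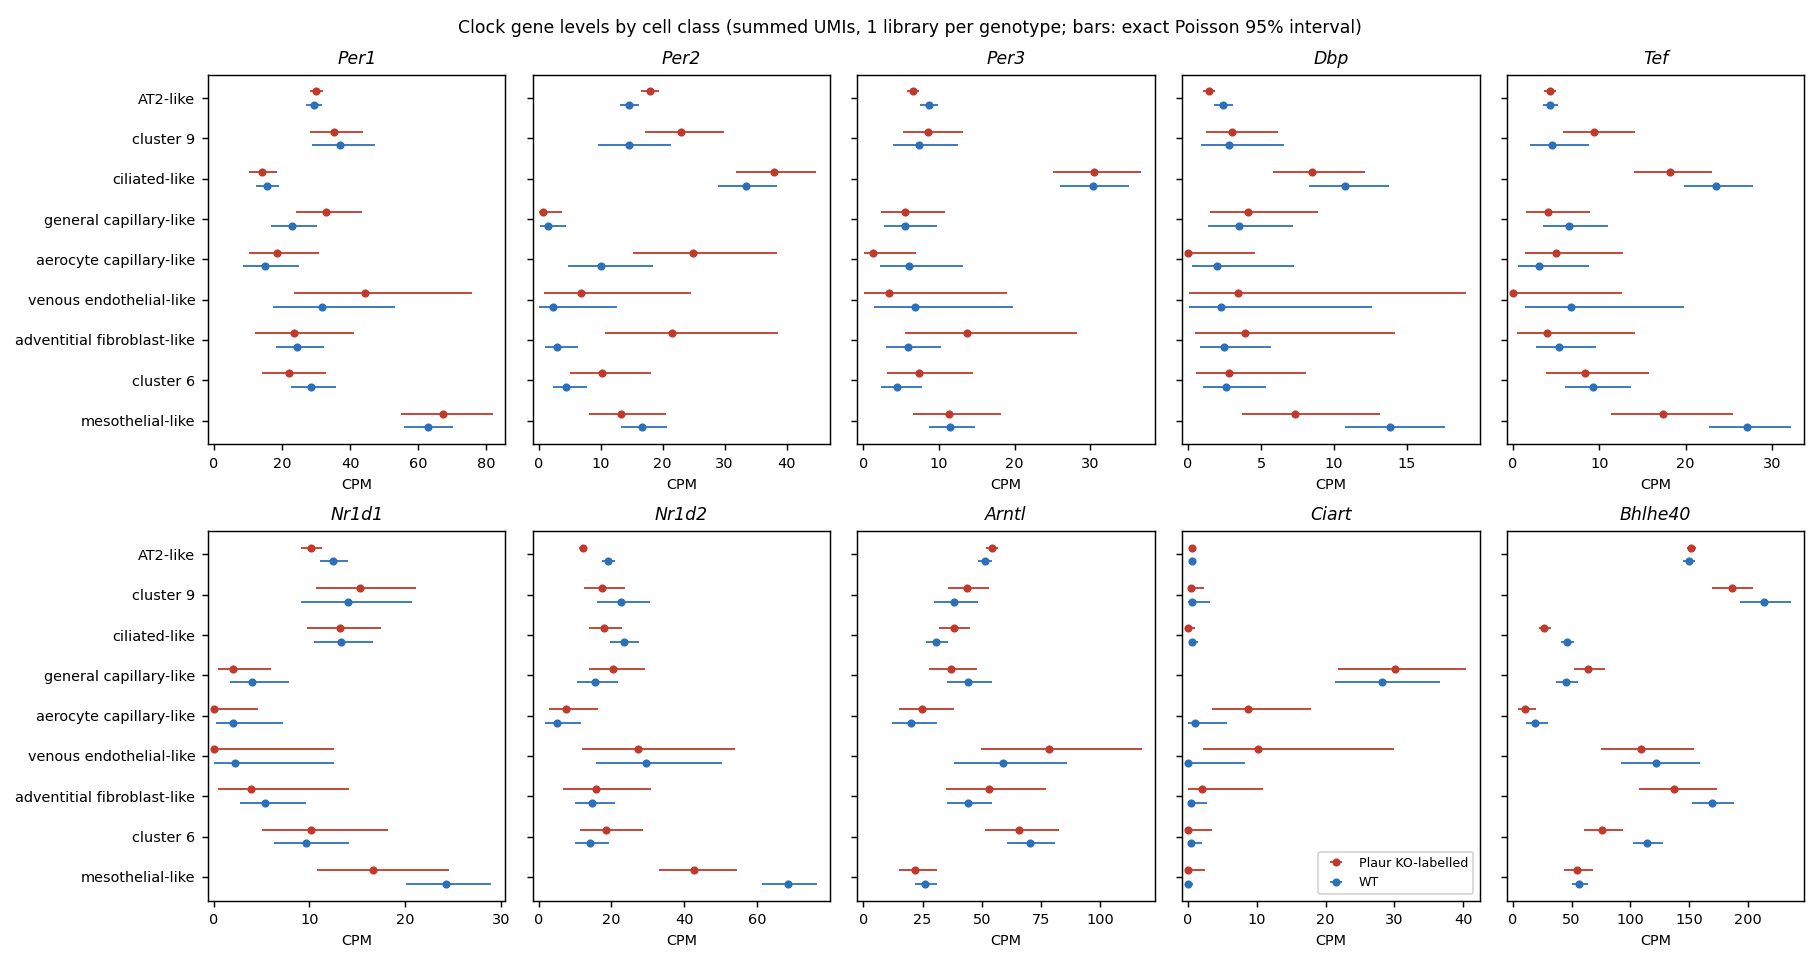
Level of each clock gene in CPM in the 9 compared classes, with exact Poisson 95% intervals, for the Plaur KO-labelled library and the WT library. Per2 and Per3 are highest in ciliated-like cells, Nr1d2 and Per1 in mesothelial-like cells and Ciart in general capillary-like cells, in both libraries.

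The REV-ERB genes, the direct repressors of Arntl, were both on the lower side in AT2-like cells, and Nr1d2 by more than Nr1d1. Nr1d2 (chromosome 14, 18204054 to 18239127, minus strand) had 429 UMIs in KO-labelled AT2-like cells and 449 in WT AT2-like cells, which is KO 12.2 CPM against WT 19.2 CPM and a log2 ratio of -0.66 (-0.85 to -0.46). In mesothelial-like cells, where it was highest of the 9 classes in both libraries, it had KO 42.7 CPM against WT 68.5 CPM, a log2 ratio of -0.68 (-1.09 to -0.29). Both intervals lay below 0. The AT2-like ratio was within 1.5-fold under TMM scaling (-0.53) and relative to the median of all genes (-0.56). With each cell thinned to 1000 UMIs the AT2-like ratio was -0.87 and the mesothelial-like ratio -0.36. Ciliated-like cells (KO 17.9 against WT 23.4 CPM, log2 -0.39, -0.84 to 0.05) and cluster 9 (KO 17.4 against WT 22.5 CPM, log2 -0.37, -1.03 to 0.30) were on the same side within wide intervals. In 3 classes the ratio was above 0: general capillary-like cells (KO 20.5 against WT 15.4 CPM, log2 0.42), cluster 6 (KO 18.5 against WT 14.1 CPM, log2 0.39) and adventitial fibroblast-like cells (KO 15.7 against WT 14.7 CPM, log2 0.10). Each of these 3 intervals included 0, and venous endothelial-like cells had KO 27.3 against WT 29.4 CPM from KO 8 and WT 13 UMIs. The aerocyte capillary-like cells, with KO 6 and WT 5 UMIs, were below the minimum.

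Nr1d1 (chromosome 11, 98767932 to 98775333, minus strand), the gene of REV-ERB alpha, differed less than Nr1d2. It had 10.2 CPM in KO-labelled AT2-like cells and 12.5 CPM in WT AT2-like cells, from KO 358 and WT 293 UMIs (log2 -0.30, -0.53 to -0.07). In mesothelial-like cells it had KO 16.7 and WT 24.3 CPM (log2 -0.54, -1.22 to 0.09), and in ciliated-like cells KO 13.2 and WT 13.3 CPM (log2 -0.01). The AT2-like interval lay below 0 but the ratio stayed within 1.5-fold, it was 0.00 when each cell was thinned to 1000 UMIs, and the TMM shift of 0.12 in this class is larger than the distance of the interval from 0. Thra overlaps the 3' end of Nr1d1 on the opposite strand, and whether reads were counted by strand is not stated. Thra had KO 39.2 and WT 42.8 CPM in AT2-like cells, a log2 ratio of -0.13.

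Dbp and Tef, the genes of the D-box activators through which the clock drives its output, had their lowest ratios in mesothelial-like cells. Dbp (chromosome 7, 45705088 to 45710203, plus strand) is often among the most strongly cycling transcripts of a tissue, yet it was sparse here. It had 50 UMIs in KO-labelled AT2-like cells and 56 in WT AT2-like cells, or KO 1.42 against WT 2.39 CPM (log2 -0.75, -1.33 to -0.18). In mesothelial-like cells KO 11 and WT 68 UMIs gave KO 7.34 against WT 13.9 CPM (log2 -0.92, -1.99 to 0.01), and in ciliated-like cells KO 31 and WT 63 UMIs gave KO 8.52 against WT 10.7 CPM (log2 -0.34, -1.01 to 0.31). Dbp was thus lower in the KO-labelled library in 3 of the 3 classes with the minimum, and the other 6 classes had too few UMIs. Sphk2 overlaps its 3' end on the opposite strand and had KO 14.7 and WT 15.4 CPM in AT2-like cells (log2 -0.07).

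Tef (chromosome 15, 81802421 to 81826863, plus strand) split by class. In mesothelial-like cells it had 17.4 CPM in the KO-labelled library and 27.1 CPM in the WT library (log2 -0.64, -1.31 to -0.03), and in ciliated-like cells KO 18.1 and WT 23.5 CPM (log2 -0.38, -0.82 to 0.06). The mesothelial-like ratio was within 1.5-fold under TMM scaling (-0.57) and relative to the median of all genes (-0.55), and was -0.01 with each cell thinned to 1000 UMIs. The 2 libraries stood in AT2-like cells at KO 4.29 and WT 4.31 CPM from KO 151 and WT 101 UMIs (log2 -0.01, -0.38 to 0.37). Cluster 9 was the exception on the higher side, at KO 9.35 and WT 4.50 CPM, from KO 22 and WT 8 UMIs (log2 1.06, -0.17 to 2.43), and the ratio was 0.53 at the Leiden resolution of 2.

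The Per genes, which encode the repressors that close the loop, did not move as one. Per1 (chromosome 11, 69095217 to 69109960, plus strand), which glucocorticoids and other acute signals also induce, had 30.1 CPM in KO-labelled AT2-like cells and 29.3 CPM in WT AT2-like cells, from KO 1061 and WT 687 UMIs (log2 0.04, -0.10 to 0.18). Among the 9 classes it was highest in mesothelial-like cells, at KO 67.4 and WT 62.8 CPM (log2 0.10, -0.24 to 0.43). General capillary-like cells gave its highest ratio, at KO 32.8 and WT 22.8 CPM (log2 0.52, -0.09 to 1.14), and cluster 6 its lowest, at KO 22.2 and WT 28.6 CPM (log2 -0.37, -1.10 to 0.31). No Per1 ratio in the 9 classes passed the fold, and every interval included 0. With each cell thinned to 1000 UMIs the ratio was -1.29 in ciliated-like cells and 0.63 in cluster 9, both past 1.5-fold. The thinned values are sparse: in ciliated-like cells a Per1 UMI was left in 0.859% of 582 KO-labelled and 2.10% of 952 WT cells.

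Per2 (chromosome 1, 91415982 to 91459324, minus strand) was the member most often on the higher side, above 0 in 5 of the 6 classes with the minimum. In AT2-like cells it had 17.9 CPM in the KO-labelled library and 14.6 CPM in the WT library, from KO 631 and WT 342 UMIs (log2 0.29, 0.10 to 0.49), and thinned to 1000 UMIs the ratio was 0.59. In aerocyte capillary-like cells KO 20 and WT 10 UMIs gave KO 24.9 against WT 10.1 CPM (log2 1.31, 0.14 to 2.57), and with free AT2 RNA subtracted the ratio was 1.34. Cluster 9 had KO 23.0 against WT 14.6 CPM (log2 0.65, -0.05 to 1.38; 0.54 at the Leiden resolution of 2) and cluster 6 had KO 10.2 against WT 4.46 CPM from KO 11 and WT 12 UMIs (log2 1.19, -0.14 to 2.49; 0.48 with marked doublets kept). Only the AT2-like and aerocyte intervals lay above 0, and the aerocyte value rests on KO 20 and WT 10 UMIs. In ciliated-like cells, where Per2 was highest of the 9 classes in both libraries, it had KO 37.9 and WT 33.4 CPM (log2 0.18, -0.14 to 0.50), and in mesothelial-like cells it was on the lower side, at KO 13.4 and WT 16.7 CPM (log2 -0.32, -1.11 to 0.39). General capillary-like cells had KO 1 and WT 3 Per2 UMIs, although the same cells had KO 54 and WT 89 UMIs of Arntl.

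Per3 (chromosome 4, 151003652 to 151044665, minus strand), whose window above carries 2 D-boxes, pointed the other way from Per2 in AT2-like cells. It had 6.53 CPM in the KO-labelled library and 8.63 CPM in the WT library, from KO 230 and WT 202 UMIs (log2 -0.40, -0.68 to -0.12). The Per2 and Per3 intervals in AT2-like cells lay on opposite sides of 0. In ciliated-like cells, the highest of the 9 classes, Per3 stood at KO 30.5 and WT 30.4 CPM (log2 0.01, -0.35 to 0.36), and in mesothelial-like cells at KO 11.3 and WT 11.4 CPM (log2 -0.01). Thinned to 1000 UMIs per cell, the ciliated-like ratio was 0.46. Cluster 6 had KO 7.39 and WT 4.46 CPM from KO 8 and WT 12 UMIs (log2 0.73, -0.77 to 2.14). Camta1 overlaps Per3 on the same strand and had KO 37.07 and WT 39.85 CPM in AT2-like cells (log2 -0.10).

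Ciart and Bhlhe40 encode further repressors of the activator pair. Ciart (chromosome 3, 95878503 to 95882251, minus strand), whose window holds 3 E-boxes, was read mainly in general capillary-like cells, with KO 44 and WT 57 UMIs or KO 30.1 and WT 28.3 CPM (log2 0.09, -0.51 to 0.68). A Ciart UMI was seen in 4.76% of KO-labelled and 4.14% of WT general capillary-like cells, against 0.313% of KO-labelled and 0.311% of WT AT2-like cells. The AT2-like cells were deeper, with medians of KO 6194 and WT 6384 UMIs, against KO 1341 and WT 1337.5 UMIs in general capillary-like cells. At 1000 UMIs per cell the shares were KO 3.49% and WT 2.79% in general capillary-like cells and KO 0.037% and WT 0.028% in AT2-like cells. The share in general capillary-like cells was thus above that of AT2-like cells in both libraries. AT2-like cells had KO 18 and WT 12 UMIs, aerocyte capillary-like cells KO 7 and WT 1, and mesothelial-like cells 0 in both libraries. C920021L13Rik, antisense to Ciart at its 3' end, had KO 5 and WT 4 UMIs in general capillary-like cells.

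Bhlhe40 (chromosome 6, 108660629 to 108666925, plus strand), which stress and cytokines also induce, was the best read member. In AT2-like cells it was level, at 152 CPM in the KO-labelled library and 150 CPM in the WT library, from KO 5349 and WT 3512 UMIs (log2 0.02, -0.04 to 0.08; 0.14 under TMM scaling). It was lower in ciliated-like cells, at KO 26.9 against WT 46.2 CPM (log2 -0.78, -1.13 to -0.44), and in cluster 6, at KO 75.7 against WT 114 CPM (log2 -0.59, -0.96 to -0.24). With free AT2 RNA subtracted the ciliated-like ratio was -1.08 and the cluster 6 ratio -0.68, but relative to the median of all genes cluster 6 was within 1.5-fold, at -0.57. Thinned to 1000 UMIs per cell, the ciliated-like ratio of Bhlhe40 was -1.36. In general capillary-like cells Bhlhe40 was on the higher side, at KO 64.3 against WT 45.1 CPM (log2 0.51, 0.08 to 0.94), but the ratio was 0.29 with free AT2 RNA subtracted and 0.01 with marked doublets kept. Aerocyte capillary-like cells had KO 8 and WT 19 UMIs (log2 -0.94, -2.34 to 0.32), and under the stricter cell filter the ratio was 0.33, a change of direction. Adventitial fibroblast-like cells (KO 137 against WT 169 CPM, log2 -0.30) and mesothelial-like cells (KO 54.7 against WT 56.5 CPM, log2 -0.05) had intervals that included 0, but the adventitial ratio was -0.77 when thinned to 1000 UMIs. Among the 9 classes its highest level was in cluster 9, at KO 186 and WT 214 CPM (log2 -0.20).

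AT2-like cells fell into 6 clusters, and the clusters show which members held one direction within the class. This split was looked at after the class values were known. Nr1d2 was lower in the KO-labelled library in 6 of 6 clusters, with log2 ratios of -1.86 to -0.29. In the largest (cluster 0) it had KO 16.5 against WT 20.1 CPM, in cluster 1 KO 14.2 against WT 20.5 CPM, and in cluster 2 KO 8.96 against WT 18.5 CPM. The 3 smaller clusters had KO 6.75 against WT 15.9 CPM (cluster 8), KO 6.38 against WT 12.2 CPM (cluster 11) and KO 6.93 against WT 25.2 CPM (cluster 14). Nr1d2 varied over AT2-like clusters by more than 2-fold in each library, yet the WT value was the higher one each time. The clusters come from the same 2 libraries and are not replicates. Over AT2-like cells as a whole the median ratio of all genes was -0.10, with a 25th percentile of -0.26 and a 75th of 0.03. A ratio below 0 was thus the more common one in this class, for Nr1d2 and for the members that follow.

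**Figure D3:**
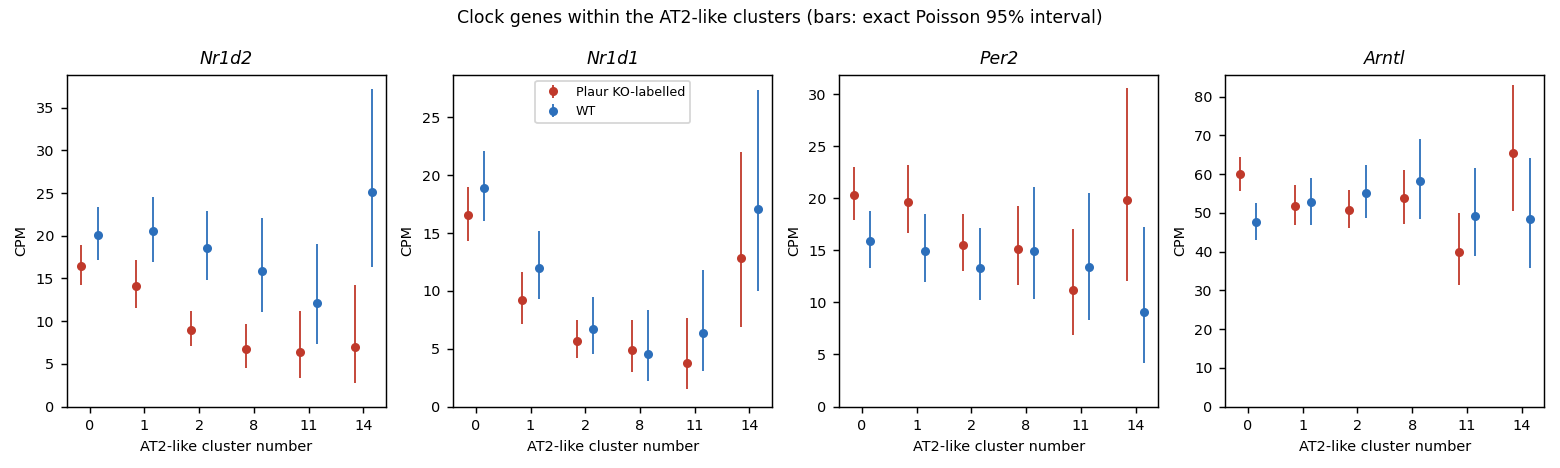
Level in CPM of Nr1d2, Nr1d1, Per2 and Arntl in the 6 AT2-like clusters, as points with exact Poisson 95% intervals (bars), for the Plaur KO-labelled library and the WT library. The Nr1d2 point of the KO-labelled library is the lower one in all 6 clusters, while the Arntl points differ in both directions.

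Of the other members, Per3 was lower in 4 of the 4 AT2-like clusters with the minimum (log2 -0.66 to -0.27), Dbp in 2 of 2 (log2 -0.86 to -0.17), Nr1d1 in 4 of 5 (log2 -0.41 to 0.11) and Tef in 3 of 4 (at most log2 0.47). Per2 was higher in 5 of 6 (log2 -0.27 to 1.13). Arntl was lower in 4 and higher in 2 (log2 -0.31 to 0.43), Per1 lower in 3 and higher in 3 (log2 -0.24 to 0.77), and Bhlhe40 stayed between -0.28 and 0.10.

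A difference in clock phase could move the E-box side and Arntl unequally, so the median log2 ratio of the E-box members was set against the ratio of Arntl in each class. In AT2-like cells the median of 9 members was -0.01 and Arntl 0.08, a difference of -0.09, although 8 of the 9 lay below Arntl. In ciliated-like cells all 8 members with the minimum lay below Arntl, with a median of -0.24 against 0.31 and a difference of -0.55. The upper quartile of all genes was 0.03 in AT2-like cells and 0.12 in ciliated-like cells. Most genes thus also lay below Arntl in these classes, and the counts of members below it are not particular to the E-box side. In mesothelial-like cells the median was -0.43 and Arntl -0.24, a difference of -0.19, so that both sides were on the lower side there, as was the median of all genes at -0.10. In general capillary-like cells the order was the opposite, with a median of 0.46 over 4 members, Arntl at -0.26 and a difference of 0.72. Under the stricter cell filter the difference was -0.38. Arntl alone stands for the ROR-element side here. Other clock genes listed on that side had a median of 0.92 over 4 genes in these cells, opposite in sign to Arntl. The other classes gave -0.52 (venous endothelial-like), -0.32 (adventitial fibroblast-like), -0.07 (cluster 9), 0.00 (aerocyte capillary-like) and 0.17 (cluster 6), the first 2 and the aerocyte value from 3 members each. The difference was below 0 in some classes and above 0 in others, so the classes did not share 1 direction. A median hides members that move in opposite directions, as Nr1d2 (log2 -0.66) and Per2 (log2 0.29) did in AT2-like cells. It can therefore neither show nor exclude a difference in clock phase.

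Counted against Arntl directly, which needs no scaling between libraries, Nr1d2 was lower in the KO-labelled library in 6 of the 8 classes with the minimum and Dbp in 3 of 3. These values have no interval, and the share of all genes lower against Arntl was not computed. The median of all genes lay below Arntl in AT2-like cells (log2 -0.10 against 0.08) and ciliated-like cells (-0.06 against 0.31), among others. It lay above Arntl in mesothelial-like cells (-0.10 against -0.24), general capillary-like cells and cluster 6. Per 100 UMIs of Arntl, AT2-like cells had 22.4 UMIs of Nr1d2 in the KO-labelled library and 37.3 in the WT library, ciliated-like cells KO 46.8 and WT 75.7, cluster 9 KO 39.8 and WT 58.8, and mesothelial-like cells KO 194 and WT 262.5. Dbp per 100 Arntl UMIs was KO 2.61 and WT 4.65 in AT2-like cells, KO 22.3 and WT 34.8 in ciliated-like cells and KO 33.3 and WT 53.1 in mesothelial-like cells. Per2 was higher in AT2-like cells (KO 33.0 and WT 28.4), cluster 9 (KO 52.4 and WT 38.2), aerocyte capillary-like cells (KO 100 and WT 50) and cluster 6 (KO 15.5 and WT 6.35). It was slightly lower in ciliated-like cells (KO 99.3 and WT 108) and mesothelial-like cells (KO 60.6 and WT 64.1). Nr1d1 was lower in AT2-like, ciliated-like and mesothelial-like cells and cluster 9, and higher in cluster 6. Per1 ran from log2 -0.45 in ciliated-like cells to 0.78 in general capillary-like cells. In general capillary-like cells Nr1d2 had 55.6 UMIs per 100 of Arntl in the KO-labelled library and 34.8 in the WT library, from KO 30 and WT 31 Nr1d2 UMIs.

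A further 19 genes of the clock and its outputs gave 138 gene by class pairs with the minimum, of which 8 (5.8%) were higher and 15 (10.9%) lower past 1.5-fold, close to the 6.27% and 10.8% of the pairs of all genes. None of these genes passed the fold in as many as 5 of the 9 classes, and those named next were picked after their values were seen. The median of all genes was below 0 in each of the 9 classes (log2 -0.10 to -0.01), so the lower side was the more common one. Hlf, the gene of the third D-box activator, was lower in each of the 3 classes where it was read: mesothelial-like cells (KO 101 against WT 152 CPM, log2 -0.58, -0.84 to -0.33), adventitial fibroblast-like cells (KO 17.7 against WT 39.2 CPM, log2 -1.15) and cluster 6 (KO 4 and WT 35 UMIs, log2 -1.82). Usp2, a clock-controlled deubiquitinase gene, was on the lower side in 5 of 5 classes, with KO 8.68 against WT 19.4 CPM in mesothelial-like cells (log2 -1.16, -2.12 to -0.32). Bhlhe41, the paralogue of Bhlhe40, was on the lower side in 4 of 4, with KO 3 and WT 24 UMIs in AT2-like cells.

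Not every gene of that list was on the lower side. Wee1, a cell-cycle kinase gene, was above 0 in 7 of 8 classes and had KO 80.8 against WT 34.3 CPM in mesothelial-like cells (log2 1.24, 0.89 to 1.58). Rora, whose protein competes with the REV-ERBs at the ROR element, was below 0 in 8 of 9 classes, with KO 166 against WT 370 CPM in mesothelial-like cells (log2 -1.16, -1.36 to -0.97). In general capillary-like cells 4 genes were higher: Cry2 (KO 21 and WT 8 UMIs, log2 1.86), Npas2 (KO 15 and WT 7 UMIs, log2 1.56), Nfil3 (KO 13 and WT 9 UMIs, log2 0.99) and Cry1 (KO 30 and WT 23 UMIs, log2 0.85). All 4 rest on few UMIs, and among the compared classes other than AT2-like cells and cluster 9 this one had the highest Sftpc level in the KO-labelled library. Npas2, Nfil3 and Cry1 are listed on the ROR-element side with Arntl, which was at -0.26 there, and Cry2 on the E-box side.

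Genes of acute stimuli, which also reach Per1, Per2 and Bhlhe40, were counted in the same way, beside the 6.27% higher and 10.8% lower among the pairs of all genes. Of 107 heat-shock pairs 54 (50.5%) were higher and 3 (2.8%) lower, and the median of the list was above 0 in 9 of 9 classes (0.24 to 1.01). Hspa8, the constitutive HSP70 chaperone gene, was higher past the fold in 9 of 9 classes, with log2 ratios of 0.67 to 1.34. Hsph1 had the highest median of that list (log2 1.33) and Bag3 the lowest (log2 -0.14). The cold-induced pair was lower, with 0 of 18 pairs higher and 10 (55.6%) lower. Cirbp had a median log2 ratio of -0.78, with KO 32.6 against WT 60.4 CPM in AT2-like cells, and Rbm3 a median of -0.51, with KO 95.4 against WT 136 CPM.

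Glucocorticoid-induced genes gave 31 (27.0%) higher and 12 (10.4%) lower among 115 pairs, with list medians above 0 in 8 of 9 classes (-0.04 to 0.57). Zbtb16 had the highest median (log2 0.98, KO 71.5 against WT 36.2 CPM in AT2-like cells) and the metallothionein gene Mt2 the lowest (log2 -0.66). Fkbp5, a co-chaperone gene of the glucocorticoid receptor, was above 0 in 8 of 8 classes with a median of 0.59, and Tsc22d3, which encodes GILZ, in 8 of 9 with a median of 0.50. Per1, which is on this list as well, had a median of 0.04. Immediate-early genes gave 5 (4.27%) higher and 20 (17.1%) lower among 117 pairs, with Dusp1, which is also on the glucocorticoid list, highest (median log2 0.38), Fosb next (0.37), Egr1 lowest (-0.50) and Fos at 0.03. The part of these stimuli in the clock values was not tested.

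**Figure D4:**
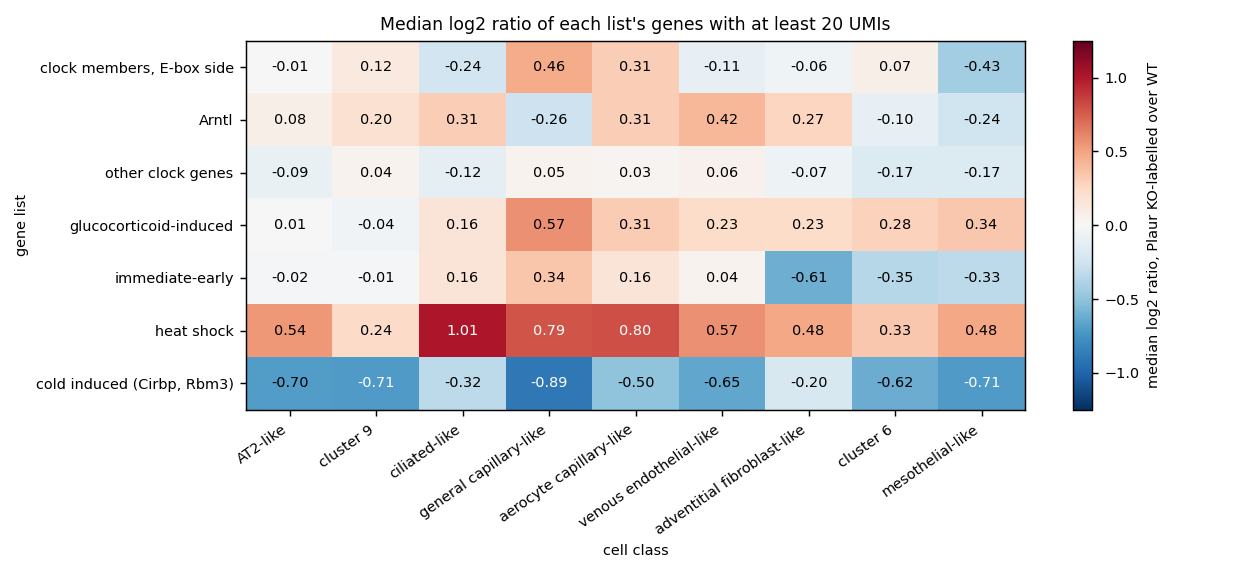
Median log2 ratio (Plaur KO-labelled over WT) of the E-box members, Arntl, the other clock genes and the 4 stimulus lists (rows) in each of the 9 compared classes (columns), printed in each cell and coloured red above 0 and blue below. Heat-shock medians lie above 0 in 9 of 9 classes and cold-induced medians below 0 in 9 of 9, while the E-box members lie on both sides.

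The genes whose levels most resembled those of 3 members were found by Pearson's r of log2(CPM + 10) over 32 sums of a class in a library (16 classes), among 4905 genes. The sums share libraries and class depth, and r is a description. For Per1 they were Arih2 (r = 0.79), Gm19951 (0.77) and Ndel1 (0.73). For Arntl they were Trim44 (0.79), Pnn (0.76) and Pdss2 (0.75), and for Dbp, whose r values were lower, Tut4 (0.69), H3f3b (0.69) and Zrsr2 (0.68).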

How the data were processed

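The authors deposited raw UMI counts per gene and cell barcode for each library, written with Cell Ranger (version 7.0.0 per the file headers, while the submitters' processing notes name 7.0.0 and 7.1.0) on mm10. How barcodes were chosen, and whether intronic reads or strand were used, is not stated. The deposited matrices held 51529241 UMIs in 9771 barcodes (Plaur KO-labelled) and 57028943 UMIs in 11776 barcodes (WT).

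Barcodes below 500 genes or above 15% mitochondrial UMIs were dropped. Scrublet, with an expected share of 8%, marked doublets, 175 (1.92%) KO-labelled and 617 (5.69%) WT, which were removed. Both libraries were clustered together in scanpy 1.11.5 (2000 variable genes, 30 components, 15 neighbours, Leiden resolution 1), giving 27 clusters. Clock, glucocorticoid, immediate-early, heat-shock and cold-induced genes and Plaur did not shape the clusters. A cluster was named from at least 3 markers of a class among its 50 leading genes. It was compared by number where the markers were mixed.

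UMIs were summed per class and library and divided by the class total (CPM). Ratios have exact conditional binomial intervals, levels exact Poisson and shares exact Clopper-Pearson intervals (95%). They show counting error alone. No test was made, since each genotype has 1 library. The script was checked on simulated data. TMM factors came from edgeR 4.0.16 as an alternative scale only.

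All 10 members are described in all compared classes. Other clock genes were to be named past the fold in 5 or more of the 9 classes, and stimulus genes by the highest and lowest median, plus Tsc22d3, Fkbp5, Fos, Hspa8, Cirbp and Rbm3. The members and lists were chosen with earlier results of these data known. Gene positions are from GENCODE M21 (GRCm38).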

Additional observations from a re-analysis of the deposited data

How the results depend on the processing

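Over the alternatives for cell filter, doublets, clustering, thinning, scaling, free AT2 RNA and UMI minimum, 690 recomputed member ratios stayed within their counting interval, and 20 lay outside it. Of the ratios past 1.5-fold, 1 changed direction: Bhlhe40 in aerocyte capillary-like cells, -0.94 as reported and 0.33 under the stricter cell filter. A further 4 of those outside the interval changed sign from a ratio within 1.5-fold: Arntl in general capillary-like cells (0.75, stricter filter) and, when thinned, Arntl in ciliated-like cells (-0.22), Per1 in cluster 9 (0.63) and Nr1d1 in AT2-like cells (0.00). Of the 690, 59 changed sign. Thinning to 1000 UMIs made 13 of the 20. Thinned ratios rest on fewer UMIs than the interval they were held against, so counting error alone can place them outside it. The difference between the E-box median and Arntl was 0.72 in general capillary-like cells and -0.38 under the stricter filter. Thinning moved it to -1.43 in cluster 9 (-0.07 as reported) and to 0.89 in mesothelial-like cells (-0.19 as reported). The cause was not tested.

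The count of pairs higher past the fold, 5 as reported, was 3 at resolution 0.5, 3 when thinned, 3 with free AT2 RNA subtracted, 3 at 2-fold, 1 with a minimum of 50 UMIs and 20 with no minimum. The count lower, 8 as reported, was 4 when centred on the median of all genes, 5 with free AT2 RNA subtracted, 13 with no minimum and 0 at 2-fold. Free AT2 RNA could be subtracted in 7 classes only, so fewer pairs were counted there. Cluster 9 had no matching cluster under the looser and stricter filters and at resolution 0.5. TMM factors shifted AT2-like ratios by 0.12, so changes there are relative to that shift.

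No paired analysis was possible because each genotype has 1 library, so there are no replicates to pair. Depth limits the text most for Dbp, Ciart, the endothelial classes and adventitial fibroblast-like cells. In all, 29 of the 90 pairs were under the minimum.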

Other observations

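Classes under 100 cells in either library gave few clock UMIs. Airway secretory-like cells (97 KO-labelled, 347 WT) had 15.8 CPM of Nr1d1 in the KO-labelled library and 6.95 CPM in the WT library, from KO 23 and WT 28 UMIs (log2 1.18, 0.32 to 2.03), which is opposite in sign to AT2-like cells. Their Nr1d2 stood at KO 4.81 and WT 7.95 CPM (log2 -0.72, -2.15 to 0.48) and their Arntl at KO 21.3 and WT 22.1 CPM (log2 -0.05). TMM factors shifted ratios in this class by 0.26.

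In the 21 KO-labelled and 46 WT macrophage or monocyte-like cells that remained after the CD45.2-negative sort, Bhlhe40 had KO 286 and WT 142 CPM, from KO 31 and WT 36 UMIs (log2 1.02, 0.27 to 1.75). Nr1d1 had 0 UMIs in both libraries in the macrophage, NK-like and neutrophil-like cells. In 25 KO-labelled and 145 WT neutrophil-like cells Per1 stood at KO 99.9 and WT 132 CPM (log2 -0.40, -2.15 to 1.02) and Per2 had KO 1 and WT 17 UMIs. In 20 KO-labelled and 80 WT neuroendocrine-like cells Nr1d2 had KO 3 and WT 24 UMIs, or KO 32.1 and WT 65.0 CPM (log2 -1.02, -3.39 to 0.70).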
